A study of Homo sapiens with 6 samples.

Results

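Nucleotide synthesis and salvage was followed here through 36 genes, taken by symbol from the 31853 genes of the deposited table. They were grouped by role as purine synthesis, phosphoribosyl pyrophosphate (PRPP) supply, folate enzymes, pyrimidine synthesis, salvage, nucleotide kinases and breakdown. All 36 were in the table and all 36 passed the filter on low counts. The study measured poly(A) RNA of Mon-Mac-6, a human cell line derived from an acute leukaemia with monocytic features. One group of 3 libraries came from cells given DMSO, the vehicle, and the other 3 from cells given 500 nM WD6305, both for 48 h. WD6305 is named in the series as a PROTAC against METTL3, the methyltransferase that places N6-methyladenosine on messenger RNA; a PROTAC brings its target protein to a ubiquitin ligase. Separate cultures are not stated for the 3 libraries of either group, so p-values measure the spread between these libraries, which may be technical. Both groups are the same line with no genetic change named in the labels.

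Cells obtain nucleotides along separate routes. In the de novo routes the purine ring is built on PRPP, a sugar phosphate, up to inosine monophosphate (IMP), which is then turned into AMP or GMP, while the pyrimidine ring is built first and then joined to PRPP to give UMP and later CTP. In the salvage routes, free bases and nucleosides are taken back by phosphoribosyltransferases and kinases, and nucleotide kinases then raise monophosphates to triphosphates. Dividing leukaemia cells draw on these routes for RNA and DNA, and IMP dehydrogenase, dihydroorotate dehydrogenase and deoxycytidine kinase are known as drug targets or drug activators.

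Most of these genes were lower under WD6305, by small amounts. Of the 36, 19 fell, 1 rose and 16 did not pass the test (edgeR quasi-likelihood test, Benjamini-Hochberg adjusted p under 0.05 over all 18138 genes tested). Calls in either direction thus took in 20 of the 36, beside 23.4% of all genes tested. That is 52.8% called lower and 2.78% called higher, where 11.2% of all genes tested were called lower and 12.2% called higher. All genes tested include many at low levels, while all 36 had a mean FPKM (a level per transcript length) of at least 1. In an edgeR fit of the 11009 genes at that level, 2038 were called lower and 2161 higher, with 20 and 1 of the 36. The shares that follow were not matched for level. In 25 of the 36 every WD6305 library lay below every DMSO library in CPM (counts scaled to a common library size), or 69.4% against 20.3% of all genes tested, and in 2 every WD6305 library lay above, or 5.56% against 20.4%. The log2 fold change (WD6305 against DMSO, so that a negative value is lower under WD6305) was below 0 in 33 of the 36, where 49.9% of all genes were below 0. The median was -0.19 over the 36 and 0.00 over all genes tested. None of the 36 changed 2-fold: the folds of the called genes were smallest for UCK2, at 1.12, and largest for MTHFD1, a decrease by 33.2%. The 36 together took 0.387% to 0.404% of the deposited counts in the DMSO libraries and 0.322% to 0.328% in the WD6305 libraries, which do not overlap. In RNA from a whole culture, fewer cells of a type and less RNA per cell cannot be told apart.

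**Figure D1:**
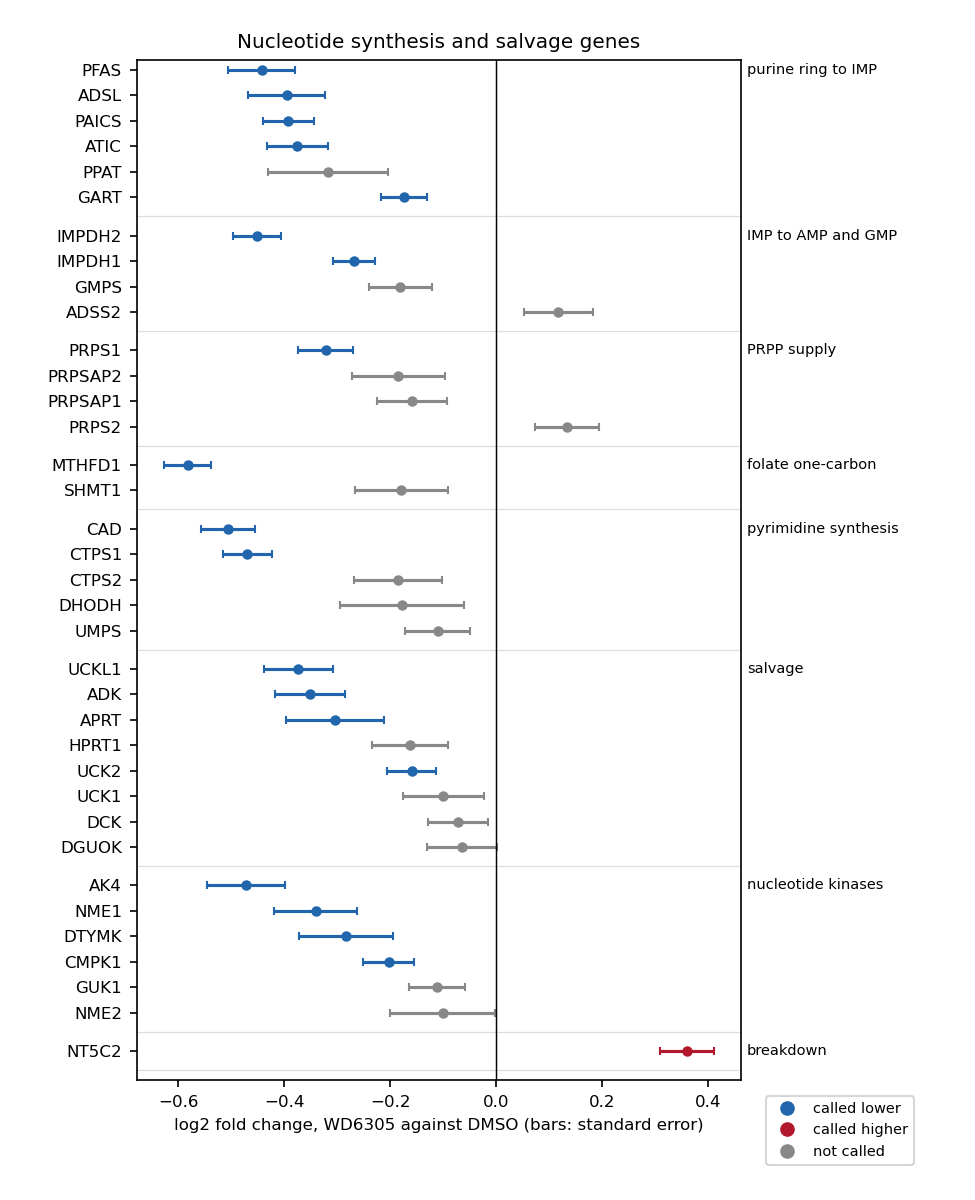
Log2 fold change of each of the 36 genes under WD6305 against DMSO (x axis), with its standard error as the bar, grouped by role; blue genes were called lower, the red gene higher and grey genes were not called. Of the points, 33 lie left of 0, MTHFD1 is lowest at -0.58, and NT5C2 is highest at 0.36.

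Deposited counts summed to between 64525948 and 71155346 per library. METTL3 RNA was at 64.9 to 70.5 CPM with DMSO and 76.0 to 79.7 CPM with WD6305 (log2 fold change 0.21 with SE 0.05; edgeR adjusted p = 0.0218); the files used here hold no protein measurement. The cell type label was checked against 8 markers of monocytic cells, all of which were detected. Their summed level was 6470 to 6986 FPKM (a level per transcript length) with DMSO and 10760 to 12142 FPKM with WD6305. Most of that sum was LYZ (means 3040 and 5455 FPKM with DMSO and WD6305) and S100A9 (3579 and 6060 FPKM). Of the 8 markers, 6 were called higher and 1, CD14, lower. The part of this shift in the results on nucleotide genes was not tested. Keratinocyte markers set DMSO 3 and WD6305 1 apart: the summed level of 5 such genes was 2.91 and 2.66 FPKM there and 30.0 to 37.7 FPKM in the other 4 libraries, with KRT5 and KRT14 at 0.06 FPKM or less in those 2 libraries. Fibroblast markers summed to 4.33 FPKM in WD6305 1 and to at most 0.27 FPKM elsewhere. Each group holds 1 of those 2 libraries, and without both of them 21 of the 36 genes were called lower and 1 higher (edgeR). Over all 18467 genes tested in that fit, 1826 were called lower and 2298 higher. B cell markers summed to at most 0.71 FPKM and the erythroid marker HBA1 to at most 0.39 FPKM in any library, the endothelial marker VWF was listed at 0 in all 6, and T cell markers, of which 0 of 4 were matched by symbol, were not analysed here.

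The level per transcript length differed widely between the genes under DMSO. NME2 and NME1, the nucleoside diphosphate kinases, were highest at 136 and 75.8 FPKM, followed by IMPDH2 at 63.7, IMPDH1 at 37.3 and PAICS at 31.3 FPKM. At the other end were DHODH at 1.22, CTPS2 at 2.60, PRPSAP2 at 3.75 and ADSL at 4.49 FPKM. The 8 salvage genes lay between 11.9 FPKM (ADK) and 29.1 FPKM (APRT), a narrower range than the 5 genes of pyrimidine synthesis, which ran from DHODH at 1.22 to CAD at 19.3 FPKM. Under WD6305 the summed FPKM of the 5 pyrimidine genes went from 46.7 ± 0.599 to 35.1 ± 0.512 (mean ± SD, n = 3), that of the 6 genes that build IMP from 102 ± 3.33 to 79.5 ± 2.72, and that of the 8 salvage genes from 167 ± 4.25 to 145 ± 1.72. The 6 nucleotide kinases summed to 291 ± 21.6 and 249.7 ± 20.5 FPKM, the widest spread of the groups.

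**Figure D2:**
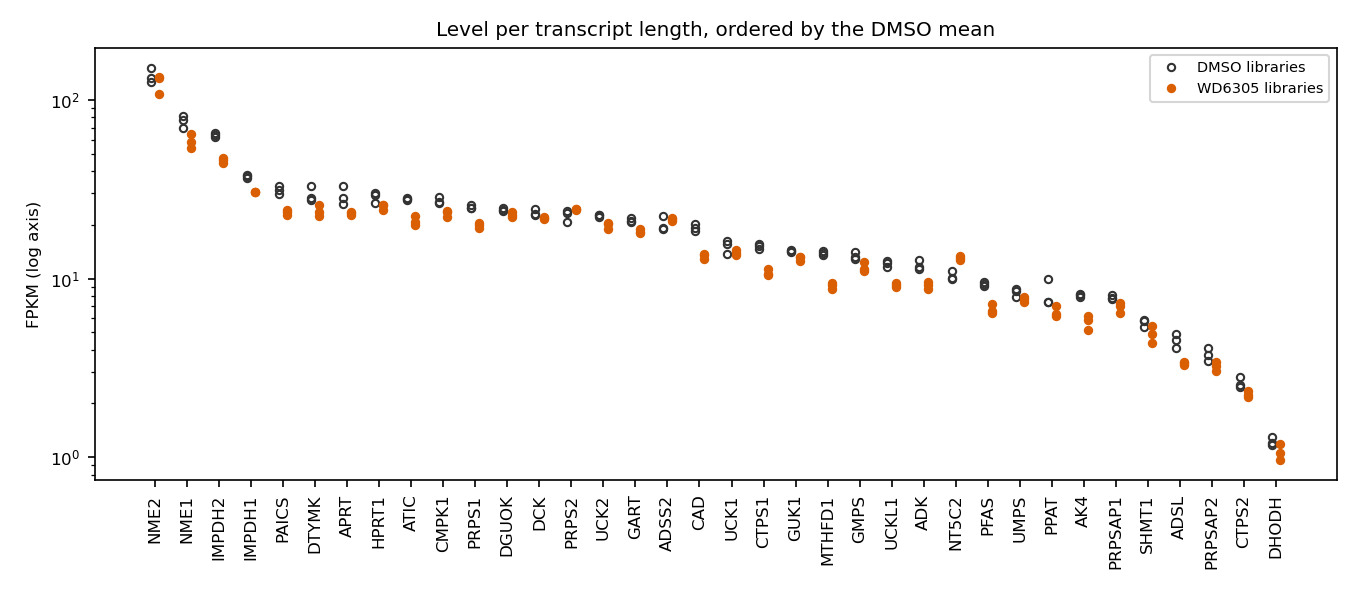
FPKM of each of the 36 genes (log axis) in the 3 DMSO libraries (open points) and the 3 WD6305 libraries (filled points), ordered by the DMSO mean. The order runs from NME2 at 136 FPKM to DHODH at 1.22 FPKM, and filled points lie below open points for most genes.

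Most genes of purine synthesis up to IMP fell. Of the 6, 5 fell (83.3%, against 11.2% of all genes tested) and 1, PPAT, did not pass. All 6 had every WD6305 library below every DMSO library, against 20.3% of all genes tested. The median log2 fold change was -0.38. PFAS, a synthetase in the middle of the route (chr17:8247618-8270486, GRCh38, plus strand), was at 62.3, 65.1 and 62.1 CPM in DMSO 1, 2 and 3 and at 45.6, 49.2 and 44.6 CPM in WD6305 1, 2 and 3. It fell 1.36-fold (log2 fold change -0.44 with SE 0.06; edgeR adjusted p = 0.00138), the largest change of the 6. PAICS, which carries out a pair of consecutive steps (chr4:56435741-56464578), was at 251, 236 and 255 CPM with DMSO and at 193, 181 and 189.9 CPM with WD6305. It fell by 0.39 on the log2 scale (SE 0.05, adjusted p = 0.000672, edgeR), with tight libraries in both groups. ATIC, which closes the ring to give IMP, went from 111 ± 2.76 to 85.4 ± 5.50 CPM (mean ± SD, n = 3; log2 fold change -0.38). ADSL, which acts both on this route and on the branch to AMP, went from 57.3 ± 4.54 to 43.5 ± 1.13 CPM (-0.40). ADSL overlaps SGSM3 on the same strand, so the split of reads between them is uncertain; SGSM3 had a log2 fold change of -0.12 (adjusted p = 0.496, edgeR). PFAS overlaps CTC1 on the other strand, which had -0.16 (adjusted p = 0.174, edgeR); the sources used here do not state if reads were assigned by strand.

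GART, a multifunctional enzyme that also takes a formyl group from folate, changed least of the 6, from 172 ± 2.48 to 153 ± 4.64 CPM (log2 fold change -0.17 with SE 0.04; edgeR adjusted p = 0.0182). Its call was lost without WD6305 2 or WD6305 3 (adjusted p = 0.0696 and 0.0929, edgeR). PPAT, the amidotransferase of the first committed step, was at 42.8, 42.6 and 55.8 CPM with DMSO and at 40.7, 35.5 and 37.0 CPM with WD6305. DMSO 3 stood high for PPAT, and the log2 fold change of -0.32 (SE 0.11) did not pass the test in edgeR (adjusted p = 0.0754, 95% interval -0.58 to -0.06 for that gene alone). Without DMSO 3 alone it was -0.18 and did not pass (adjusted p = 0.139, edgeR), nor did PPAT pass with any other single library left out. PPAT passed under 3 of 18 alternatives. Among them were edgeR without both DMSO 3 and WD6305 1 (-0.24, adjusted p = 0.0473) and DESeq2 (adjusted p = 0.0120). PPAT and PAICS lie head to head on chromosome 4, with PPAT on the minus strand (chr4:56393362-56435615), so that a short stretch of DNA separates their starts.

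That stretch, 125 bases at chr4:56435616-56435740 (RefSeq promoter table, GRCh38.p14), is shown on the strand of PAICS because it separates the PPAT and PAICS starts. PAICS fell and PPAT did not pass, which does not show that the changes of these genes differ. Capitals mark GGGCGG, the GC box bound by Sp-family factors, found 3 times.
PPAT to PAICS: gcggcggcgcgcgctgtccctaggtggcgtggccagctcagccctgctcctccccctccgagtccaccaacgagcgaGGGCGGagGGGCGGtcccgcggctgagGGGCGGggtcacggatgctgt
Its G and C content was 76.0%, and it holds 0 copies of CACGTG.

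Of the 4 genes that lead from IMP to AMP and GMP, both IMP dehydrogenases fell and GMPS and ADSS2 did not pass (median log2 fold change -0.22). That is 50% called lower, against 11.2% of all genes tested. IMPDH2, the main IMP dehydrogenase of dividing cells (chr3:49024325-49029447, minus strand), was at 355, 336 and 339 CPM with DMSO and at 242, 256 and 254 CPM with WD6305. The groups lie far apart relative to their spread, and IMPDH2 fell 1.37-fold (log2 fold change -0.45 with SE 0.05; edgeR adjusted p = 0.000251). IMPDH1, the other IMP dehydrogenase, was at 143, 145 and 143 CPM with DMSO and at 119, 119 and 120 CPM with WD6305 (means 144 ± 0.810 and 119 ± 0.635 CPM, SD, n = 3). It fell 1.20-fold (log2 fold change -0.27 with SE 0.04; edgeR adjusted p = 0.00176), and its libraries were the tightest of the 36 relative to the mean in both groups. GMPS, which makes GMP from the product of IMP dehydrogenase, had a log2 fold change of -0.18 with no overlap between groups and missed the threshold (adjusted p = 0.0587, edgeR). It passed under 9 of 18 alternatives, among them DESeq2 (adjusted p = 0.0252) and edgeR without WD6305 1 (adjusted p = 0.0381). ADSS2, which starts the branch to AMP, was at 70.3, 68.5 and 79.6 CPM with DMSO and at 80.2, 79.0 and 77.7 CPM with WD6305. DMSO 3 lay among the WD6305 libraries, and the log2 fold change of 0.12 did not pass (95% interval -0.03 to 0.27, adjusted p = 0.242, edgeR). Without DMSO 3 the log2 fold change of ADSS2 was 0.19 and it was called higher (adjusted p = 0.0277, edgeR).

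PRPP is made by PRPS1 and PRPS2, and PRPSAP1 and PRPSAP2 are associated proteins of the same complexes. Of these 4, PRPS1 fell (25%, against 11.2% of all genes tested) and the other 3 did not pass. PRPS1 (chrX:107628428-107651026) was at 93.5, 88.7 and 87.5 CPM with DMSO and at 72.0, 69.5 and 74.1 CPM with WD6305. It fell 1.25-fold (log2 fold change -0.32 with SE 0.05; edgeR adjusted p = 0.00264). PRPS2 was at 61.1, 67.7 and 68.4 CPM with DMSO and at 72.3, 71.2 and 72.7 CPM with WD6305, every WD6305 library above every DMSO library. Its log2 fold change of 0.13 did not pass (95% interval -0.00 to 0.27, adjusted p = 0.147, edgeR). PRPSAP1 and PRPSAP2 had -0.16 and -0.19 on the log2 scale and did not pass either (adjusted p = 0.120 and 0.170, edgeR). PRPSAP1 passed without both DMSO 3 and WD6305 1 (-0.22, adjusted p = 0.0496, edgeR). It overlaps SPHK1 on the other strand, whose mean count was 29.0% of that of PRPSAP1. SPHK1 had a log2 fold change of -0.24 (adjusted p = 0.0772, edgeR).

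MTHFD1 showed the largest change of the 36. It is the cytosolic folate enzyme that supplies the formyl groups used by GART and ATIC (chr14:64388031-64463457). Its level was 258, 247 and 255 CPM with DMSO and 163, 174 and 171 CPM with WD6305. The lowest DMSO library lay well above the highest WD6305 library, and MTHFD1 fell by 33.2% (log2 fold change -0.58 with SE 0.04; edgeR adjusted p = 9.2e-05). SHMT1, the cytosolic serine hydroxymethyltransferase, was at 43.7, 39.5 and 41.8 CPM with DMSO and at 32.9, 40.5 and 36.9 CPM with WD6305. WD6305 2 lay among the DMSO libraries, and the log2 fold change of -0.18 did not pass (95% interval -0.38 to 0.02, adjusted p = 0.184, edgeR). SHMT1 overlaps SMCR8 on the other strand, whose mean count was 233% of that of SHMT1 and which rose (log2 fold change 0.32, adjusted p = 0.00606, edgeR).

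Of the 5 genes of pyrimidine synthesis, CAD and CTPS1 fell and 3 did not pass (median log2 fold change -0.19). That is 40% called lower, against 11.2% of all genes tested. CAD, which joins the first 3 steps in 1 protein (chr2:27217369-27243943), was at 165, 181 and 168 CPM with DMSO and at 122, 123 and 117 CPM with WD6305. It fell 1.42-fold (log2 fold change -0.51 with SE 0.05; edgeR adjusted p = 0.000251). CTPS1, which turns UTP into CTP (chr1:40979300-41012564), was at 195, 186 and 192 CPM with DMSO and at 145, 135 and 135 CPM with WD6305. It fell 1.38-fold (log2 fold change -0.47 with SE 0.05; edgeR adjusted p = 0.000250), and neither gene's groups came near each other. The other CTP synthase, CTPS2, was at 15.1 and 13.3 CPM (means) with no overlap between groups and did not pass (log2 fold change -0.19, adjusted p = 0.148, edgeR). DHODH, the mitochondrial dihydroorotate dehydrogenase, had 9.59, 8.56 and 8.67 CPM with DMSO and 7.86, 7.05 and 8.79 CPM with WD6305. WD6305 3 lay among the DMSO libraries, and the log2 fold change of -0.18 did not pass (95% interval -0.45 to 0.09, adjusted p = 0.326, edgeR). UMPS, which makes UMP, had a log2 fold change of -0.11 (95% interval -0.25 to 0.03, adjusted p = 0.238, edgeR).

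**Figure D3:**
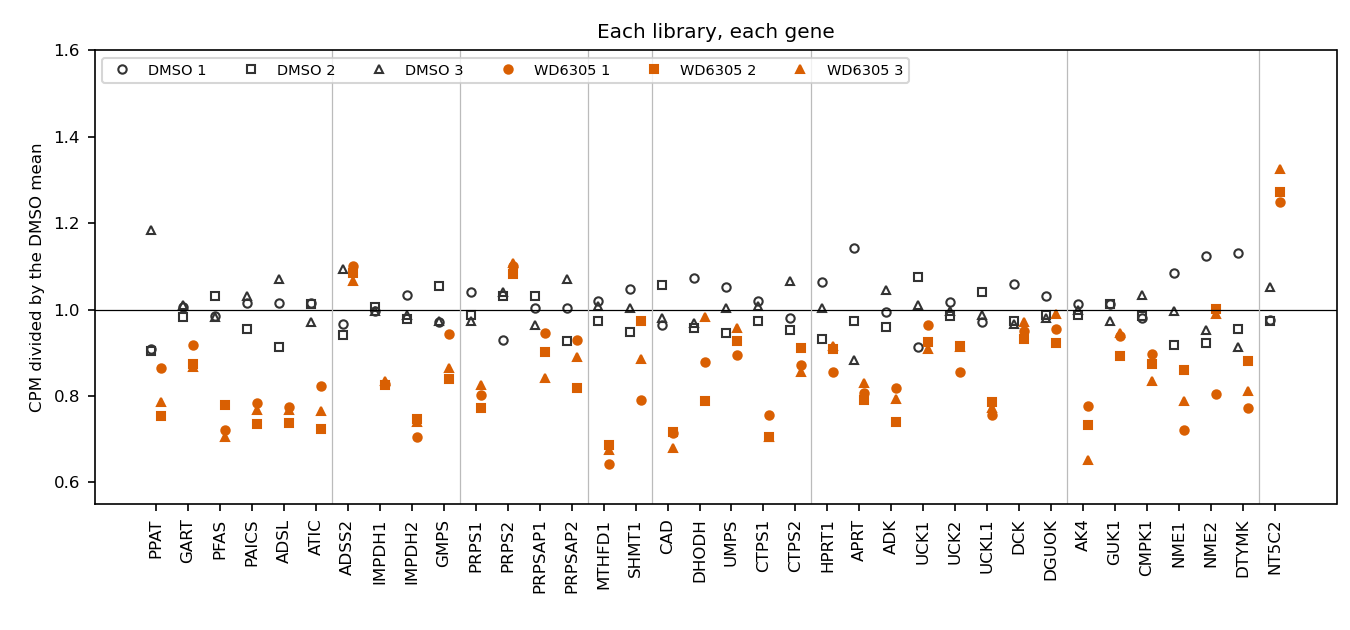
CPM of each of the 36 genes in each library, divided by the gene's DMSO mean (y axis, line at 1), with open symbols for the 3 DMSO and filled symbols for the 3 WD6305 libraries; vertical lines part the roles. The 3 filled symbols of MTHFD1 (163 to 174 CPM) lie far below its open ones (247 to 258 CPM), and those of NT5C2 lie above.

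Of the 8 salvage genes, 4 fell, 0 rose and 4 did not pass (median log2 fold change -0.16). That is 50% lower and 0% higher, against 11.2% and 12.2% of all genes tested. ADK, which phosphorylates adenosine, was at 57.9, 55.9 and 60.9 CPM with DMSO and at 47.7, 43.1 and 46.1 CPM with WD6305. It fell 1.28-fold (log2 fold change -0.35, adjusted p = 0.00549, edgeR). UCKL1, a uridine and cytidine kinase-like protein, was at 39.4, 42.2 and 40.1 CPM with DMSO and at 30.7, 31.9 and 31.3 CPM with WD6305. It fell 1.30-fold (log2 fold change -0.37, adjusted p = 0.00375, edgeR), the largest change among the salvage genes. UCK2, a uridine-cytidine kinase, fell 1.12-fold (-0.16, adjusted p = 0.0337, edgeR) and APRT, which salvages adenine, 1.23-fold (-0.30, adjusted p = 0.0450, edgeR). Both calls were lost when any library but DMSO 3 was left out (adjusted p = 0.0627 to 0.125 for UCK2 and 0.0867 to 0.131 for APRT, edgeR). HPRT1, which salvages hypoxanthine and guanine, was at 51.6, 45.2 and 48.7 CPM with DMSO and at 41.5, 44.1 and 44.5 CPM with WD6305. Its groups did not overlap, and the log2 fold change of -0.16 did not pass in edgeR (adjusted p = 0.138). HPRT1 passed under 2 of 18 alternatives, among them limma on log2(FPKM + 1) (adjusted p = 0.0438), and not in DESeq2 (adjusted p = 0.0907). DCK and DGUOK, the cytosolic and mitochondrial deoxynucleoside kinases, were at 76.2 and 72.5 CPM (DCK) with log2 fold changes of -0.07 (95% interval -0.20 to 0.06) and -0.06 (-0.21 to 0.08). UCK1 had -0.10 (95% interval -0.27 to 0.07); it overlaps POMT1 on the other strand, whose mean count was 132% of its own.

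Of the 6 nucleotide kinases, 4 fell (66.7%, against 11.2% of all genes tested) and 2, GUK1 and NME2, did not pass. AK4, a mitochondrial adenylate kinase, was at 65.1, 63.5 and 64.2 CPM with DMSO and at 49.97, 47.0 and 41.9 CPM with WD6305. It fell 1.39-fold (log2 fold change -0.47 with SE 0.07; edgeR adjusted p = 0.00218). Its copies AK4P1 and AK4P3 carried 11.5% and 5.11% of its mean count, so the split of reads among them is uncertain. CMPK1, which phosphorylates CMP and UMP, fell 1.15-fold (-0.20, adjusted p = 0.0159, edgeR), a call lost without WD6305 2 or 3 (adjusted p = 0.0531 to 0.0862). DTYMK, which phosphorylates dTMP, fell 1.22-fold (-0.28, adjusted p = 0.0488, edgeR), a call lost without any library but DMSO 3 (adjusted p = 0.0586 to 0.150). GUK1, the guanylate kinase, had a log2 fold change of -0.11 with no overlap between groups (adjusted p = 0.169, edgeR).

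NME1 and NME2 lie in tandem on chromosome 17 and share a readthrough gene, NME1-NME2. NME1 was at 295, 249.7 and 271 CPM with DMSO and at 196, 234 and 214 CPM with WD6305, and fell 1.27-fold (log2 fold change -0.34 with SE 0.08; edgeR adjusted p = 0.0134). The call was lost without WD6305 1 or 3 (adjusted p = 0.0505 to 0.0574). NME2 was at 402, 330.2 and 341 CPM with DMSO and at 288, 358 and 354 CPM with WD6305, overlapping groups (log2 fold change -0.10, 95% interval -0.33 to 0.12, adjusted p = 0.524, edgeR). The readthrough gene was at 74.2, 76.3 and 58.2 CPM with DMSO and at 37.2, 29.0 and 37.0 CPM with WD6305, and fell by 1.02 on the log2 scale (SE 0.13, adjusted p = 0.000775, edgeR). Its reads cannot be separated with certainty from those of NME1 and NME2. With the 3 counts summed as 1 gene, an alternative chosen after seeing the data, the level was 699 ± 62.9 and 583 ± 53.8 CPM (SD, n = 3; log2 fold change -0.26, adjusted p = 0.0504, edgeR).

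NT5C2 was the single gene of the 36 that rose. It is a cytosolic 5'-nucleotidase that removes phosphate from IMP and GMP (chr10:103087185-103277605, minus strand). It was at 97.0, 96.8 and 105 CPM with DMSO and at 124, 127 and 132 CPM with WD6305. The groups did not overlap, and NT5C2 rose 1.28-fold (log2 fold change 0.36 with SE 0.05; edgeR adjusted p = 0.00138). CNNM2, which overlaps it on the other strand, had a log2 fold change of -0.23 (adjusted p = 0.182, edgeR).

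Pairs of genes that encode the same step, or for PRPSAP1 and PRPSAP2 associated proteins, were compared as ratios of FPKM within each library. The 6 pairs were tested by an exact two-sided permutation test whose smallest p with 3 against 3 is 0.1. PRPS1 to PRPS2 was 1.25, 1.07 and 1.04 with DMSO and 0.810, 0.793 and 0.829 with WD6305. The higher level per length was that of PRPS1 in the DMSO libraries and of PRPS2 in the WD6305 libraries. CTPS1 to CTPS2 went from 5.85 ± 0.294 to 4.80 ± 0.269 (SD, n = 3). IMPDH2 to IMPDH1 was 1.77, 1.66 and 1.69 with DMSO and 1.45, 1.54 and 1.52 with WD6305. NME1 to NME2 went from 0.556 ± 0.0231 to 0.472 ± 0.0278. In these 4 pairs the groups did not overlap, and each reached p = 0.1 in the exact permutation test (0.15 adjusted over the 6 pairs), which cannot pass 0.05 in this design. PRPSAP1 to PRPSAP2 and UCK2 to UCK1 overlapped between groups (exact permutation p = 0.8 and 0.6).

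**Figure D4:**
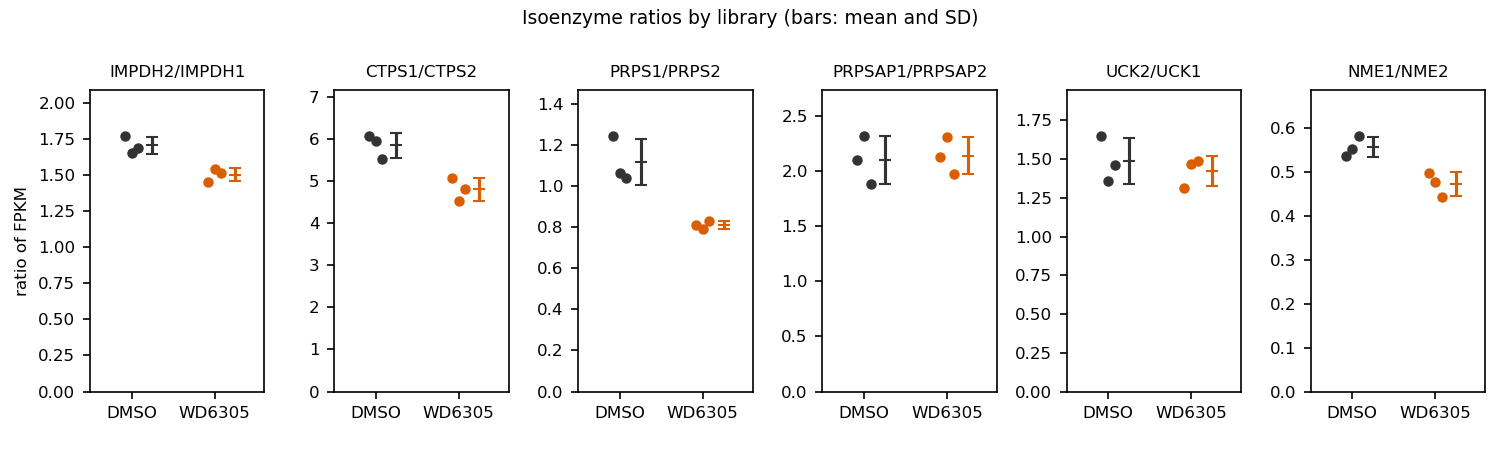
Ratio of FPKM of each pair of related genes, in each library of both groups. PRPS1 to PRPS2 lies above 1 in the DMSO libraries and between 0.793 and 0.829 in the WD6305 libraries.

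The upstream sequence of the genes was read from the RefSeq promoter table (GRCh38.p14) over the 250 bases before each RefSeq start, on both strands; 34 of the 36 were matched, without ADSL and IMPDH2, with up to 5 starts a gene. CACGTG, the E-box bound by MYC-family factors and a palindrome, was in at least 1 window of 7 of 34 genes (20.6%), against 7.73% of 27305 genes. GGGCGG was in 29 of 34 (85.3%) against 46.2%, and CCAAT in 12 of 34 (35.3%) against 37.0%. The 27305 genes are all those of the promoter table, expressed here or not, while the 36 all passed the filter on low counts. Shares over expressed genes alone were not computed, so a difference from 27305 genes is not shown to be particular to nucleotide genes. A gene with more starts has more windows that can hold a motif, and the 34 genes had 57 windows where the 27305 genes had 35116. Counted per window, the shares were 12.3% against 6.34% for CACGTG, 70.2% against 42.6% for GGGCGG and 26.3% against 32.0% for CCAAT. Of the 17 matched genes that fell, 4 held CACGTG, 14 GGGCGG and 8 CCAAT, where all 34 matched genes had 7, 29 and 12. Whether any motif went with a fall was not tested. The 7 matches are shown, 5' to 3' on the gene's strand, because they let genes that fell (ATIC, MTHFD1, UCKL1, AK4) be set beside genes that did not pass (PPAT, DHODH, DCK); capitals mark CACGTG. A match is a description of letters, and no binding was measured.
ATIC, chr2:215312001-215312030, plus strand: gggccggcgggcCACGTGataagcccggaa
MTHFD1, chr14:64388326-64388355, plus strand: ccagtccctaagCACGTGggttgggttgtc
UCKL1, chr20:63956632-63956661, minus strand: gggccctccaggCACGTGgcggaggctgcc
AK4, chr1:65147447-65147476, plus strand: ggtcgcagggagCACGTGggccaggcaggc
PPAT, chr4:56435780-56435809, minus strand: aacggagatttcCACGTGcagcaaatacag
DHODH, chr16:72008573-72008602, plus strand: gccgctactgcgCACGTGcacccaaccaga
DCK, chr4:70993521-70993550, plus strand: cgccccggccttCACGTGacctggcgtgcg
These matches lie before a RefSeq start, which need not be the outermost start of the gene. By the GENCODE spans, those of ATIC, MTHFD1 and DCK lie inside their own gene, that of DHODH lies partly inside, and those of UCKL1, AK4 and PPAT lie outside. The PPAT match lies inside the PAICS gene.

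Beyond the 36, 57 of 62 other genes of nucleotide and folate metabolism, listed from textbook knowledge, could be tested. Of these 16 fell (28.1%, against 11.2% of all genes), 9 rose (15.8%, against 12.2%) and 32 did not pass, with a median log2 fold change of -0.12. At a mean FPKM of at least 1, 15 of 44 fell and 8 rose, where 2038 and 2161 of 11009 genes did (edgeR). The list was made with earlier results of these data known, so its counts are not an independent check. Among 11 deoxynucleotide genes, 5 fell and 2 rose. RRM2, the regulated subunit of ribonucleotide reductase, went from 217 ± 6.31 to 163 ± 6.64 CPM (log2 fold change -0.41), TYMS, thymidylate synthase, had -0.32, and SAMHD1, which degrades deoxynucleotides, had -0.32. RRM2B, another subunit of ribonucleotide reductase, rose by 0.32. The calls of RRM2B and DCTD were lost without single libraries (adjusted p = 0.0506 to 0.0555 without DMSO 1, DMSO 2, WD6305 1 or WD6305 2 for RRM2B, and 0.0509 to 0.149 without any 1 of the 6 for DCTD, edgeR), and that of RRM1 (-0.20) without WD6305 3 (adjusted p = 0.0602).

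Among 9 other folate genes tested, 5 fell and 1 rose (median log2 fold change -0.33). SLC19A1, the reduced folate carrier, went from 201 ± 5.56 to 137 ± 7.42 CPM (-0.55). The mitochondrial enzymes MTHFD2 and SHMT2 had -0.33 and -0.37, and MTHFD2L rose by 0.57 at a low level (6.32 to 9.40 CPM). MTHFD1L (-0.30) lost its call without WD6305 3 (adjusted p = 0.0516, edgeR). Of 11 other kinases, 1 fell and 1 rose (9.09% each, against 11.2% and 12.2% of all genes tested). The gene that fell was AK1, an adenylate kinase (-0.51).

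Breakdown and transport genes went both ways, with 5 of 26 lower and 5 higher (19.2% each, against 11.2% and 12.2% of all genes tested). CDA, cytidine deaminase, which also inactivates cytarabine, went from 6.85 ± 0.724 to 18.4 ± 1.99 CPM (SD, n = 3; log2 fold change 1.43, SE 0.12, adjusted p = 0.000120, edgeR), the largest rise of the 57. PNP, purine nucleoside phosphorylase, rose by 0.37 and DPYD, which degrades pyrimidines, by 0.42; AMPD3 (0.61) and LACC1 (0.47) were the other 2. SLC29A2, a nucleoside transporter, went from 41.5 ± 0.790 to 24.4 ± 0.422 CPM (-0.76, adjusted p = 0.000128, edgeR), and ADA, adenosine deaminase, had -0.72. AMPD2 (-0.37), ENTPD1 (-0.78) and ADA2 (-0.52) also fell. LACC1 was not called without DMSO 1, DMSO 2, WD6305 1 or WD6305 2 (adjusted p = 0.0870 to 0.101), ENTPD1 without any library but DMSO 2 (0.0516 to 0.0865) and ADA2 without DMSO 2, DMSO 3, WD6305 2 or WD6305 3 (0.0831 to 0.151, all edgeR).

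**Figure D5:**
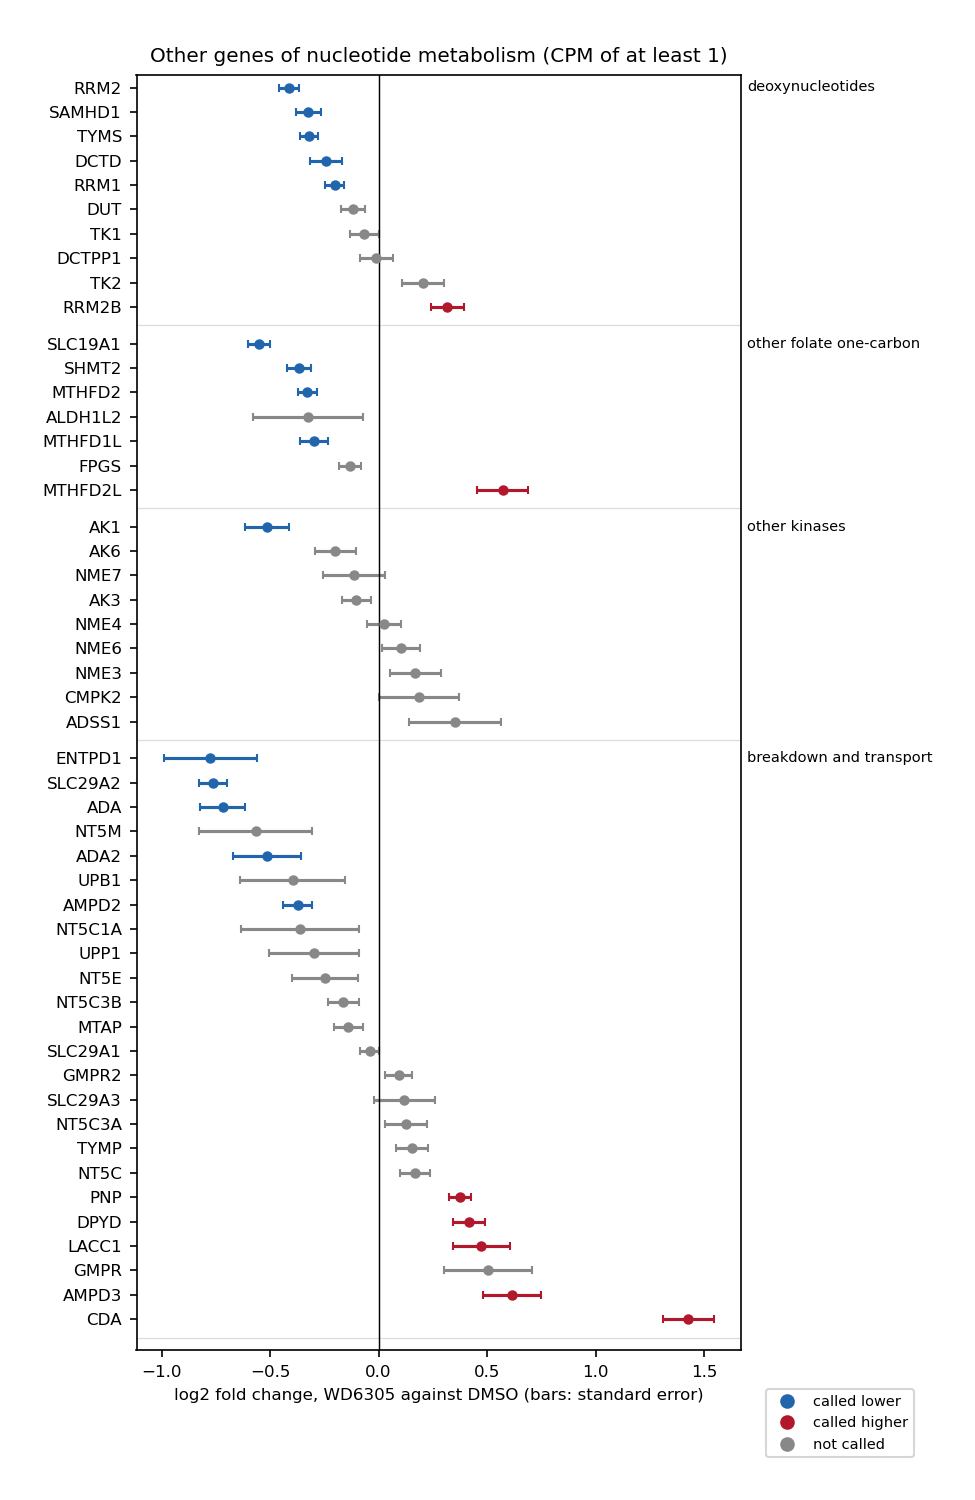
Log2 fold change under WD6305 against DMSO (x axis, bar as standard error) of 50 of the other genes tested, each with a mean of at least 1 CPM in a group, by role, with genes called lower in blue, higher in red and not called in grey. CDA stands highest at 1.43, and the folate genes lie mostly left of 0.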

How the data were processed

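Poly(A) RNA of Mon-Mac-6 cells was sequenced in 6 libraries, 3 with DMSO and 3 with 500 nM WD6305 for 48 h. The submitters' processing notes name build GRCh38 and the tools HISAT2, fastp, edgeR and StringTie, without versions; the sources used here do not state if reads were assigned by strand. The authors deposited estimated counts and FPKM per gene. The deposited counts are whole but pile up at multiples of 4: 1071 to 1176 genes per library have a count of 4 and 553 to 636 a count of 3, and counts divided by 4 were an alternative. Counts were fitted with edgeR 4.0.16 (R 4.3.3; quasi-likelihood, TMM, filterByExpr) over 18138 genes, with Benjamini-Hochberg adjustment over all of them; fold changes carry the SE of that fit. CPM and FPKM are levels; ratios between genes used FPKM. DESeq2 1.42.0 and limma 3.58.1 were alternatives. The script was tested on simulated data. All 36 genes are named; of the other pathway genes, those called are named, up to 3 per role and direction with values by the smallest adjusted p, and every gene where a count was 5 or less, except 3 genes that are counted but not reported here by name. The members and lists were chosen with earlier results of these data known. Gene positions are from GENCODE on GRCh38. The main fit did not pair libraries by replicate number. Correlations of deviations from the group mean for numbers 1, 2 and 3 were -0.18, 0.08 and -0.15. With 3 libraries per group such correlations cannot exclude a pairing. The largest was 0.26, between DMSO 3 and WD6305 1, the libraries that keratinocyte markers set apart.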

Additional observations from a re-analysis of the deposited data

How the results depend on the processing

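Over 18 alternatives, all 648 values of the 36 genes kept their direction; 598 kept their side of the threshold, 34 lost the call and 16 gained it. The summed NME counts, chosen after seeing the data, are not among these and took the call from NME1 (adjusted p = 0.0504, edgeR). Of the 19 genes called lower, 13 were called under every alternative, as was NT5C2. Leaving out 1 library gave 13 to 19 of the 36 called lower and 1 to 2 called higher (2 without DMSO 3, which adds ADSS2). Among the other pathway genes, 10 to 15 were lower (10 without WD6305 3) and 6 to 9 higher. Over all genes tested, 18834 to 18940 in these fits, 1310 (without WD6305 3) to 2077 (without DMSO 3) were called lower. Those called higher ran from 1446 (without WD6305 3) to 2563 (without DMSO 3). With the replicate block, 13 of the 36 were called lower and 1 higher, and 13 and 6 of the other genes. Over all 18138 genes tested, that fit called 1468 lower and 1736 higher. limma on log2(FPKM + 1) with no filter called 5 of the other genes higher, beside 1368 of all 29831 genes tested there. The log2 difference of the PRPSAP1 to PRPSAP2 ratio, 0.03, ran from -0.0483 (without DMSO 3) to 0.101 (without DMSO 2) with 1 library left out, was -0.0310 without WD6305 2 and was -0.0452 in the 4 libraries without DMSO 3 and WD6305 1. That of UCK2 to UCK1, -0.06, ran from -0.129 (without DMSO 2) to 0.0124 (without DMSO 1); the cause of these reversals was not tested. A gene that did not pass is not shown to be unchanged.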
